A study of Homo sapiens with 22 samples.

Results

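Acetylation of lysine 27 of histone H3 (H3K27ac) was compared between 6 h and 0 h of PMA in K562 cells, by CUT&RUN, in which an antibody-directed nuclease releases DNA fragments next to the marked nucleosomes. Members of the comparison were all H3K27ac regions of the authors' table that lie on chromosomes 1 to 22 or X, 94896 of the table's 95436 regions, and 94325 of them held enough counts to be tested. K562 is an established human erythroleukemia line, and PMA is a phorbol ester that activates protein kinase C and pushes the line toward a megakaryocyte-like state. The comparison used 2 libraries of cells given 25 nM PMA for 6 h and 2 libraries of cells at 0 h, and 2 libraries at 72 h entered the same model. Cells of all groups were fixed with 1% formaldehyde for 10 min, and the count labels of all H3K27ac libraries name the cells WT. The 4 libraries are among 22 of the series, which also holds Jun, CTCF and Rad21 libraries. The labels do not say that replicates came from separate cultures, so the p-values measure only the spread between these libraries. In bulk chromatin, fewer cells carrying the mark and less of the mark per cell cannot be told apart.

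H3K27ac is deposited by acetyltransferases such as p300 and CBP at active promoters and enhancers, where it marks nucleosomes beside bound transcription factors. Phorbol esters act on the C1 domains of protein kinase C and of RasGRP proteins, and the signal runs through MAP kinases to the AP-1 factors of the Fos and Jun families, which bind their own motif in enhancers and promoters. In erythroid cells, enhancers and promoters of the globin, heme and red cell membrane genes are bound by GATA1 with TAL1, LMO2, LDB1 and KLF1.

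Region counts summed to 19963875 and 21772218 in the 0 h libraries and to 12634261 and 18775241 in those of 6 h. Counts of the replicates differed by more than sampling noise, by a chi-square of 2.45 (0 h) and 3.67 (6 h) for each degree of freedom. The regions had a median width of 621 bp. Levels are given as CPM, library-scaled counts on the TMM scale, and a region was called when edgeR's quasi-likelihood test gave a Benjamini-Hochberg adjusted p under 0.05. A region was called over 2-fold when edgeR's test against a 2-fold change did so. Erythroid genes carried the mark in the untreated line, with mean levels at 0 h of 165 CPM at TAL1, 122 CPM at TFRC (the transferrin receptor gene), 68.8 CPM at KLF1 and 42.5 CPM at GATA1.

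Promoter sequences are given for 4 of the 10 gene starts with the largest H3K27ac gains and for 3 erythroid genes among the 10 with the largest losses. They were picked to show AP-1 and GATA motifs, so they are examples and do not stand for all 20 starts. Among the other gains, the windows of SH3RF2, DNAJB8, MEIS3, OR7E24 and ARID5B hold neither motif and those of CCL3 hold GATA alone. Among the other losses, SYCN, C17orf99 and FAM178B hold GATA, and C11orf21, SMIM1, KLF1 and EPHB4 hold neither. Each is the 250 bases before the gene's start in RefSeq on GRCh38.p14, written along the strand of the gene. Capitals mark AP-1 motifs (TGANTCA) and GATA motifs (AGATAA, or TTATCT where the motif lies on the other strand). Only these letters were searched, so other spellings of either motif are not marked or counted. The windows of OR7E24, a gain, and of FAM178B, KLF1 and KEL, losses, hold TGATAA or its reverse, TTATCA, which is such a spelling. Among the genes that rose, SGMS2, which encodes a sphingomyelin synthase, has its window at chr4:107824313-107824562 on the plus strand. HRH1, the histamine H1 receptor gene, has its window at chr3:11136988-11137237 on the plus strand. The window of EMP1, an epithelial membrane protein gene, is chr12:13196476-13196725 on the plus strand, and that of INHBA, the gene for the activin beta A chain, is chr7:41703091-41703340 on the minus strand.
SGMS2: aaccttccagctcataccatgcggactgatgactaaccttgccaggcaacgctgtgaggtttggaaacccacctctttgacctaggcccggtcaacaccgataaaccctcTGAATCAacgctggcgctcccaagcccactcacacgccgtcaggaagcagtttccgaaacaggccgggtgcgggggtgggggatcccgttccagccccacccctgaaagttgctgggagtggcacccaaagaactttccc
HRH1: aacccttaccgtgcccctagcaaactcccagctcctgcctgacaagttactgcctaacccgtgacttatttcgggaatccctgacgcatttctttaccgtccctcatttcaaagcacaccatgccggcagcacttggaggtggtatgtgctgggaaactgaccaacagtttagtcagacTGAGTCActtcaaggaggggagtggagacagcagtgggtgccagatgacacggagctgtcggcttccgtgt
EMP1: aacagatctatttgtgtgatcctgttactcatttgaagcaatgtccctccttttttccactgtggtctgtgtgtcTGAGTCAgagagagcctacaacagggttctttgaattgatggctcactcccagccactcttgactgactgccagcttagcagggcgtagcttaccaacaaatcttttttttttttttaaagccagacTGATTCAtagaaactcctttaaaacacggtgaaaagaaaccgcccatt
INHBA: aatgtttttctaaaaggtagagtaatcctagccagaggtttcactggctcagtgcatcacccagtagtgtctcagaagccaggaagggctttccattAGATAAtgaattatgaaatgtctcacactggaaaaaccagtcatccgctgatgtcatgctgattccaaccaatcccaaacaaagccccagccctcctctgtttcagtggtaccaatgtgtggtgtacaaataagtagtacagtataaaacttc
The SGMS2 and HRH1 windows hold 1 AP-1 motif each and that of EMP1 holds 2. The INHBA window holds no AP-1 motif and 1 GATA motif. Among the genes that fell, ALAS2 encodes the erythroid enzyme of the first step of heme synthesis, EPB42 encodes protein 4.2 of the red cell membrane, and KEL encodes the Kell blood group protein. Their windows are chrX:55030978-55031227, chr15:43221019-43221268 and chr7:142962364-142962613, all on the minus strand.
ALAS2: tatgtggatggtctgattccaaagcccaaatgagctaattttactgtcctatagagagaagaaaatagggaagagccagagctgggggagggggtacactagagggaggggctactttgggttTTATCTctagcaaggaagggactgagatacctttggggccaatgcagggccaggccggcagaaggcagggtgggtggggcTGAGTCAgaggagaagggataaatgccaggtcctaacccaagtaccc
EPB42: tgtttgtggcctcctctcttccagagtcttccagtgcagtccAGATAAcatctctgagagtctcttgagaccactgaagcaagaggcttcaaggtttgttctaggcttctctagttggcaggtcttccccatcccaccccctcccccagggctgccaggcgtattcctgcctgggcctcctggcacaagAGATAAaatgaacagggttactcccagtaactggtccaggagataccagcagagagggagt
KEL: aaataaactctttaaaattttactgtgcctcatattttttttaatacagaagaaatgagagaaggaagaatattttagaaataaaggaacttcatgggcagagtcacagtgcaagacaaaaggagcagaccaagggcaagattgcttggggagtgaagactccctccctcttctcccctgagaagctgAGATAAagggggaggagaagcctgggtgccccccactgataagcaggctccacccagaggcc
ALAS2 holds 1 GATA and 1 AP-1 motif, EPB42 holds 2 GATA motifs and KEL holds 1.

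In the main fit, acetylation was called changed at most regions within 6 h, and most of the large changes were gains. Of the 94325 members tested, 55311 were called, 30494 higher and 24817 lower. Over all 94865 tested regions of the table, 58.6% were called, 32.3% higher and 26.3% lower. With DESeq2, 45776 of these 94865 regions were called, against 55574 in the main fit, so the share called depends on the test. A change over 2-fold was called at 21598 members, 15747 higher and 5851 lower, against 22.8% of all tested regions, 16.6% higher and 6.2% lower. The direction of small changes depended on the scaling. The median log2 fold change of all tested regions was 0.20 with TMM, 0.53 with total counts, 0.54 with TMM factors taken only over regions where all libraries had peaks and 0.003 with loess offsets. Both 6 h libraries lay above both 0 h libraries at 43.4% of tested regions and below them at 35.4%. Calls over 2-fold in the same direction under all 4 scalings numbered 14771, 11613 higher and 3158 lower.

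Over 2-fold gains were about as frequent in groups of low and middle level and became rare among the brightest regions. Tested regions were put into 10 equal groups by mean CPM per kb over the libraries of 0, 6 and 72 h. The groups thus draw on the compared values themselves and are not groups of starting level. The median log2 fold change was 1.52 in the lowest group and −0.52 in the highest. With loess offsets, which remove a trend with level, these medians were 0.76 and −0.16. The share called over 2-fold higher lay between 18.6% and 21.6% in groups 1 to 7 and was 14.8%, 10.2% and 4.04% in groups 8 to 10. Under all 4 scalings this share was 8.51% in the lowest group, 17.3% in group 6 and 3.96% in the highest. Over 2-fold losses were called at 1.42% of the lowest group and 10.8% of the highest. The brightest of the 10 groups held 50.8% and 50.7% of each library's counts at 0 h and 42.2% and 45.0% at 6 h. Regions below the median level held 5.51% and 5.43% at 0 h and 9.25% and 8.02% at 6 h. Both 6 h libraries were therefore flatter than both 0 h libraries, and what part background reads have in this was not tested.

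**Figure D1:**
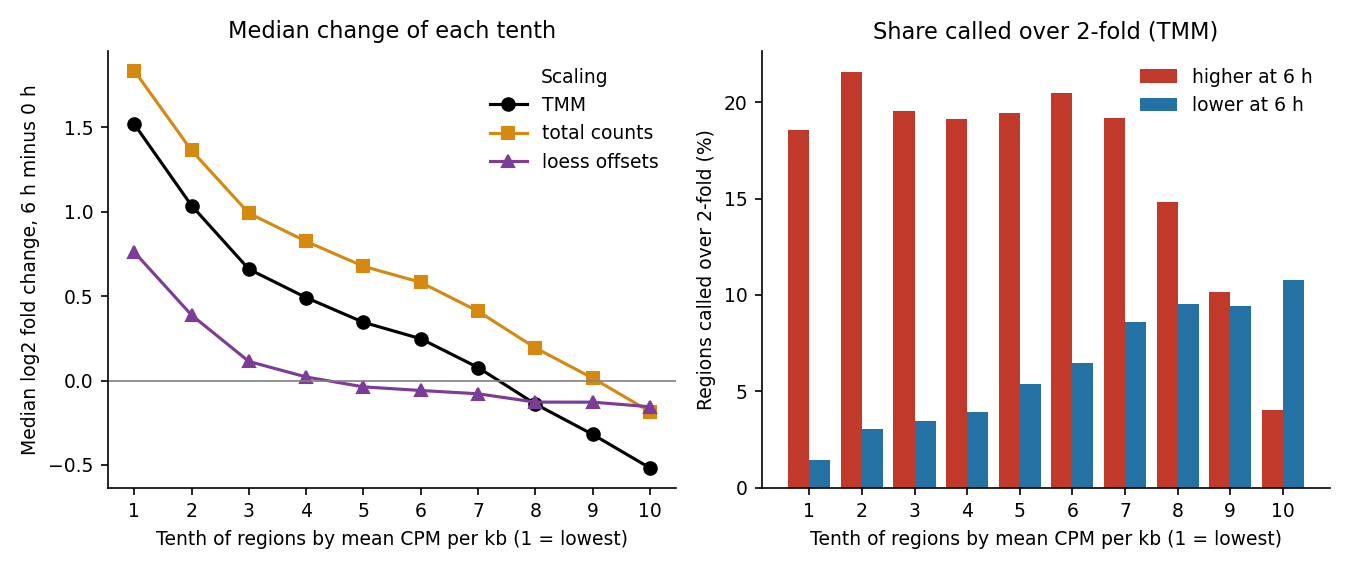
H3K27ac change between 0 h and 6 h by level of the region, with tested regions in 10 equal groups (1 is the lowest). Groups are by mean CPM per kb over the libraries of 0, 6 and 72 h, so they are not groups of starting level. Left, median log2 fold change of each group under 3 scalings, which runs from 1.52 to −0.52 with TMM. Right, percent of regions called over 2-fold higher (red) and lower (blue), where gains outnumber losses in groups 1 to 9 and not in group 10.

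Gene starts had fewer over 2-fold changes than other places but were called lower more often. Of 10652 tested members that overlap a RefSeq promoter window (250 bases before to 50 after a start), 4.90% were called over 2-fold higher and 2.12% lower. Inside gene spans, away from starts, these shares were 16.9% and 6.05% of 58503 members, and outside genes 21.3% and 8.28% of 25170. At an adjusted p under 0.05, 14.1% of promoters were called higher and 49.6% lower, against 33.7% and 23.7% in gene spans and 36.9% and 22.6% outside genes. The median log2 fold change was −0.31 at promoters (0.02 with total counts and −0.08 with loess offsets), 0.28 in gene spans and 0.51 outside genes. Promoters are also the brightest class, so the brightest 2 of the 10 level groups were examined alone. There, 1.22% of promoters were called over 2-fold higher and 2.02% lower, against 8.33% and 12.1% in gene spans and 13.5% and 18.0% outside genes. In the same groups 69.8% of promoters were called lower at an adjusted p under 0.05, against 55.6% in gene spans and 55.0% outside genes. The median log2 fold changes of these classes were close, at −0.44, −0.42 and −0.45 in that order. With loess offsets they were −0.07, −0.21 and −0.24, so promoters did not fall further. Promoter regions there were also wider, with a median of 1962 bp against 1123 and 1031 bp. They thus hold more counts at a given level, and what part this has in the calls was not tested. The share called over 2-fold higher ran from 11.9% on chromosome 19 to 20% on chromosome 8. The X chromosome had 12.3% higher and 9.88% lower.

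Changed regions lay next to each other. The Pearson correlation of log2 fold changes between adjacent regions, a description over pairs that share libraries, was 0.80 for gaps under 1 kb, 0.58 for 1 to 10 kb, 0.38 for 10 to 50 kb and 0.22 for 50 to 200 kb. Within 1 kb, the region after one called over 2-fold higher was itself called higher in 66.8% of cases, against 5.67% after one that was not. For regions called lower these shares were 68.9% and 2.72%. Runs of at least 3 consecutive regions called over 2-fold the same way, with gaps of at most 25 kb, numbered 1290 higher and 481 lower. The longest gain, 39 regions over 226.69 kb, lay at chr12:75712183-75938872 near KRR1 and PHLDA1, a pleckstrin-homology gene, with a median log2 fold change of 3.08. Other long gains lay at NT5E, the gene of the surface enzyme CD73 (22 regions), at SPRY4 and FGF1 (21), at CORO2B, an actin-binding coronin gene (19), and near CD83 (18). The longest loss held 19 regions near PLGLB2. Runs of 13 lower regions lay near GYPE and near BCL2L11, the gene of the pro-apoptotic protein BIM, and a run of 11 lay at PTPRC, the gene of the leukocyte phosphatase CD45. GYPE has near copies beside it, GYPB among them, so reads of these genes may be shared.

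Regions that rose the most had no counts at 0 h. The 10 regions with the largest gains all held 0 counts in both 0 h libraries, so their fold is a lower bound against 3 counts over both libraries. A region in the span of STRA6, the gene of a retinol transporter, at chr15:74185056-74186376, reached 5.95 and 5.41 CPM at 6 h, at least 69.3-fold higher. One in the span of DCLK1, a microtubule-binding kinase gene, at chr13:35923657-35924306, reached 4.13 and 4.43 CPM, at least 52.2-fold higher. At a start of ABR, a gene for a regulator of small GTPases, the region chr17:1181275-1182525 reached 4.48 and 4.08 CPM, also at least 52.2-fold higher. That the libraries of the 2 times do not overlap at these regions follows from how they were chosen. A ranking by fold also puts regions with 0 counts at 0 h first. The level they had to reach was a mean over all 6 libraries, those of 72 h among them. The region nearest to H6PD, for example, had a mean of 8.57 CPM at 6 h and 29.8 at 72 h. The 2 largest gains lay nearest to H6PD (at least 104-fold) and THBS2 (at least 88.0-fold). Others of the 10 lay in the spans of TAGLN3 (at least 56.7-fold), NT5E (51.9-fold) and CORO2B (46.3-fold), 5.5 kb from SUGCT (78.2-fold) and 75.8 kb from RTL1 (79.5-fold). None of the 10 had a deposited peak in both 6 h libraries. In all, 2002 members held 0 counts in both 0 h libraries, and 1139 of them were called over 2-fold higher. Their median was 8 counts over both 6 h libraries and the highest 290, so most of them remained low.

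Regions that fell the most were mostly away from gene starts and had peaks at 0 h. The region with DSC3 as its nearest gene, 313 kb away, at chr18:30675193-30676147, went from 67.9 and 72.6 CPM to 2.45 and 3.99, a log2 fold change of −4.40 (SE 0.16, edgeR adjusted p = 6.92e-17). Nearest to CTNNA3, at 1045 kb, the region chr10:64866818-64867672 went from 25.8 and 24.8 CPM to 1.05 and 1.48, a log2 fold change of −4.28. On chromosome X, a region in the span of TENT5D, a noncanonical poly(A) polymerase gene, at chrX:80423986-80425538, went from 47.9 and 57.2 CPM to 4.06 and 3.00, a log2 fold change of −3.92. All 3 had a peak in both 0 h libraries, and only the TENT5D region kept one in a 6 h library. The other 7 regions of this set, with LMO7, MOCS1, OOSP4A, UGT2B11, LRRC4C, DOK5 and CNTNAP3C as nearest genes, had log2 fold changes between −4.68 and −3.96.

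At gene starts, the largest gains lay at genes of varied function, and ALAS2, EPB42, SMIM1, KLF1 and KEL, all red cell genes, were among the 10 largest losses. INHBA held 0 counts at 0 h and 59 at 6 h (2.03 and 1.48 CPM), at least 21.4-fold higher, and all 7 regions of its locus were called over 2-fold higher. CCL3, a chemokine gene with near-identical copies beside it, held 1 count at 0 h and 95 at 6 h, a scaled ratio of 100 (exact 95% counting interval 17.6 to 4008). Without 0 h replicate 2, which held that count, its fitted log2 fold change of 6.37 became 8.89, and without 0 h replicate 1 it became 5.56. The start of SGMS2 went from 0.227 and 0.105 CPM to 7.91 and 8.47, a log2 fold change of 5.59 (SE 0.37, edgeR adjusted p = 1.68e-12), or 6.21 without 0 h replicate 1. HRH1 rose from 0.511 and 0.738 CPM to 15.0 and 14.0, by 4.51 on the log2 scale, and ARID5B, a gene for a DNA-binding protein, from 1.42 and 0.843 CPM to 26 and 21.4, by 4.39. EMP1 went from 0 and 0.316 CPM to 4.34 and 3.40, a log2 fold change of 4.50 that ranged from 3.57 to 9.36 as either 0 h library was left out. SH3RF2, with 4.65, ranged in the same way from 3.83 to 6.46. The others of these 10 were DNAJB8 (a co-chaperone gene), MEIS3 (a homeobox gene) and OR7E24 (an olfactory receptor gene), with log2 fold changes of 4.63, 4.60 and 4.57.

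Losses at starts reached 11-fold. The ALAS2 start, in a region at chrX:55031178-55031767 that also lies in the span of PAGE2B, fell from 10.7 and 10.3 CPM to 0.770 and 1.08, a log2 fold change of −3.46 (SE 0.27, edgeR adjusted p = 3.91e-11). EPB42 went from 44.6 and 38.5 CPM to 6.02 and 5.96, a log2 fold change of −2.79. SMIM1, the gene of the Vel blood group antigen, was the brightest of these starts and went from 165 and 170 CPM to 30.6 and 29.4, a log2 fold change of −2.48. KLF1, the erythroid Krüppel-like factor gene, went from 68.9 and 68.7 CPM to 11.8 and 13.4, a log2 fold change of −2.44, and KEL from 76.2 and 67.7 CPM to 15.2 and 15.4, one of −2.23. In every one of the 10 starts the 0 h and 6 h libraries were apart, which follows largely from how the starts were chosen. The remaining ones were C11orf21, SYCN, C17orf99, FAM178B and EPHB4, an ephrin receptor gene whose start region lies in the span of SLC12A9, with log2 fold changes from −2.77 to −2.17. Among 9150 tested regions that overlap a promoter window of a coding gene, 255 were called over 2-fold higher and 161 lower.

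**Figure D2:**
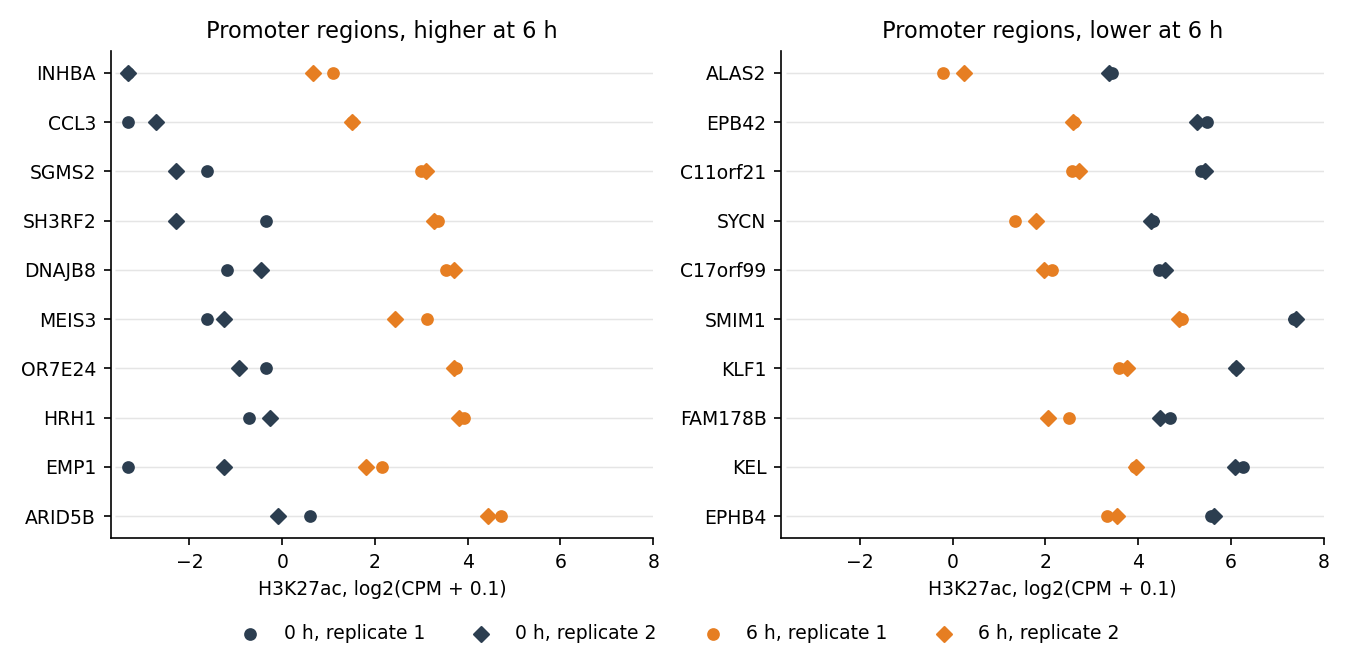
H3K27ac at the 10 gene starts with the largest gains (left) and the 10 with the largest losses (right), as log2(CPM + 0.1) in each of the 4 libraries. Circles are replicate 1 and diamonds replicate 2, dark for 0 h and orange for 6 h. At every start both libraries of one time lie above both of the other. The starts that fell were brighter at 0 h than those that rose. Both points follow largely from picking the starts by their fold change in these same libraries.

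Summed over whole gene loci (the gene span with 10 kb on each side), 25831 of 35847 loci were called, a share of 72.1%, with 28.5% higher and 43.6% lower. Over 2-fold changes were called at 16.5%, with 12.1% higher and 4.44% lower. The median locus log2 fold change was −0.16. Of called loci 39.5% were higher, but 63.1% with total counts, 64.4% with peak-region factors, 55.5% with loess offsets and 52.7% with DESeq2. Loci were ranked by their number of gained regions, which favours long genes with many regions. Of the gained loci named below, only PTPRM, HIVEP3 and CORO2B were called over 2-fold higher as summed loci. PTPRM, a receptor tyrosine phosphatase gene, had 37 of 51 regions called over 2-fold higher, and its summed level went from 16.6 and 15.5 CPM to 256 and 254, a log2 fold change of 3.99 (SE 0.11, edgeR adjusted p = 5.19e-16). HIVEP3, a zinc finger gene, had 36 of 48, and went from 27.9 and 29.8 CPM to 334 and 322, a log2 fold change of 3.51. CORO2B had 24 of 29 and went from 2.78 and 4.37 CPM to 84.9 and 80.3, a log2 fold change of 4.51. RAD51B, a recombination gene, had 36 of 86 and SNX29, a sorting nexin gene, 28 of 57, with locus log2 fold changes of 0.89 and 0.92. TRIO, a guanine exchange factor gene, had 26 of 52 (1.05), and LTBP1, which encodes a binding protein of latent TGF-beta, 23 of 64 (0.95). SUGCT had 32 of 66 with 1 lower (0.58), NSMCE2 24 of 50 (0.80) and CAST, the calpastatin gene, 24 of 50 (0.43).

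Loci with most lost regions were led by MYO16, an unconventional myosin gene. There 25 of 35 regions were called over 2-fold lower and 3 higher, and the summed level went from 337 and 331 CPM to 69.8 and 67.7, a log2 fold change of −2.28 (SE 0.08, edgeR adjusted p = 3.39e-15). NYAP2 had 12 of 14 regions lower and went from 183 and 179 CPM to 32.0 and 39.3, a log2 fold change of −2.34. AHI1, the gene beside MYB, had 14 of 25 lower, with a locus log2 fold change of −1.53. ZFPM1, the gene of the GATA1 cofactor FOG1, had 13 of 20 lower and all 20 called lower, and went from 414 and 441 CPM to 147 and 150, a log2 fold change of −1.53. Its relative ZFPM2 had 14 of 53 lower (−1.20). Others were IMMP2L with 19 of 41 (−1.81), GSE1 with 19 of 77 (−1.03), ERC1 with 14 of 24 (−1.87) and SOX5 with 12 of 18 (−1.67).

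The gene lists below take 1 region a gene, the brightest over all 6 libraries at its start or, failing that, in its span. Many of these are bright promoters. They are read against the shares called over all regions (32.3% higher and 26.3% lower), over promoters (14.1% and 49.6%) and over promoters in the brightest 2 level groups (5.19% and 69.8%). Among erythroid transcription factors, 14 of 17 fell and 1 rose, with a median log2 fold change of −1.03 (−0.70 with total counts, −0.80 with loess offsets). The share called lower is near that of the cell cycle genes below (20 of 25) and not far from the 69.8% of the brightest promoters. Besides KLF1, LYL1, a relative of TAL1, went from 101 and 105 CPM to 22.7 and 30.0, a log2 fold change of −1.95. MYB, the gene of a factor of hematopoietic progenitors, went from 195 and 182 CPM to 57.0 and 62.3, one of −1.66. GATA1 itself went from 40.2 and 44.8 CPM to 15.3 and 19.1, a log2 fold change of −1.29 (SE 0.12, edgeR adjusted p = 1.34e-09), with 5 of its 10 regions called over 2-fold lower. LDB1, CBFA2T3 and E2F2 fell by 1.38, 1.34 and 1.30 on the log2 scale and TAL1 by 0.82. Over 2-fold losses were called at 7 of the 17, and at 2 of them under all 4 scalings.

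Red cell genes fell together. Of 22 tested globin, heme and iron genes, 20 were called lower and 0 higher, and all 22 loci were called lower. These shares are near those of the ribosomal reference list given below, with 24 of 26 genes and all 26 loci called lower. The median log2 fold change was −1.08 (−0.75 with total counts, −0.79 with loess offsets), against −0.52 (−0.19 and −0.11) in the reference list. Over 2-fold losses were called at 10 of them, 6 under all 4 scalings. AHSP, the alpha globin chaperone gene, went from 7.38 and 7.80 CPM to 1.61 and 1.38, a log2 fold change of −2.35. The embryonic zeta globin gene HBZ went from 25.2 and 20.7 CPM to 4.34 and 5.46 (−2.21), although globin genes are alike and reads may be shared. TFR2, the second transferrin receptor gene, went from 159 and 176 CPM to 39.0 and 36.9, a log2 fold change of −2.14. FECH and PPOX, of the last steps of heme synthesis, fell by 1.56 and 1.31 on the log2 scale. ALAD, of the second step, had 7.72 and 7.69 CPM at 0 h and 11.1 and 7.23 at 6 h and was not called, and neither was HMOX1, which degrades heme.

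Red cell membrane and receptor genes had the lowest median of the lists, −1.36 (−1.02 with total counts, −0.86 with loess offsets). Of 21 genes, 20 were called lower and 0 higher, and all 21 loci were called lower, shares that are also near those of the ribosomal reference list. Over 2-fold losses were called at 11, 5 under all 4 scalings. EPOR, the erythropoietin receptor gene, went from 36.1 and 39.1 CPM to 11.9 and 13.1, a log2 fold change of −1.58. ERMAP, a blood group gene, went from 144 and 146 CPM to 48.7 and 49.0 (−1.57). GYPB, with −1.80, and RHD, with −1.72, have near copies in the genome, so their own shares of the reads are uncertain. SLC2A1, the glucose transporter gene, had 77.9 and 83.8 CPM at 0 h and 70.7 and 67.7 at 6 h and was not called.

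Among immediate early and AP-1 genes, 10 of 23 rose and 8 fell, with a median log2 fold change of 0.34. Over 2-fold gains were called at 6 of the 23 under all 4 scalings, and no over 2-fold loss was called. EGR2, a zinc finger factor gene, went from 8.57 and 9.27 CPM to 51.5 and 49.2, a log2 fold change of 2.49 (SE 0.12, edgeR adjusted p = 6.76e-15). ATF3, an AP-1 family gene, went from 1.93 and 1.79 CPM to 16.9 and 13.5 (3.02), and FOSB from 3.07 and 3.16 CPM to 14.6 and 14.5 (2.22). KLF2 went from 0.227 and 1.26 CPM to 7.35 and 6.99, a log2 fold change of 3.22 that became 4.94 without 0 h replicate 2 and 2.49 without replicate 1. NR4A1, an orphan nuclear receptor gene, rose by 1.78 at its start, and 9 of the 12 regions of its locus were called over 2-fold higher. FOS, JUN and EGR1, which are among the best known of these genes, were not called, with log2 fold changes of 0.34, 0.15 and 0.20, although they were called higher under total counts or peak-region scaling. JUND, another AP-1 gene, fell by 0.61.

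Feedback genes of the MAP kinase pathway rose at 8 and fell at 3 of 15, with a median log2 fold change of 0.35. An over 2-fold gain was called at 1 of them, and at 0 under all 4 scalings. ERRFI1, an inhibitor of EGF receptor signalling, went from 0.398 and 0.527 CPM to 2.24 and 1.18 (1.83). SPRED2, a Ras inhibitor gene, was brighter and went from 64.1 and 60.8 CPM to 110 and 129 (0.94). DUSP5, which inactivates ERK in the nucleus, fell at its brightest region, from 30.3 and 33.6 CPM to 14.6 and 15.2 (−1.10), while 5 of its 8 locus regions were called over 2-fold higher. For NF-kappaB genes, 6 of 20 rose and 3 fell, and the median of 0.06 was 0.40 with total counts. TRAF1, an adaptor gene and NF-kappaB target, went from 2.04 and 1.11 CPM to 6.65 and 7.23 (2.15), while its whole locus fell by 1.14, and CXCL8, the interleukin 8 gene, from 15.3 and 13.4 CPM to 29.6 and 32.7 (1.12). RELB and NFKB2, subunit genes of the alternative pathway, rose by 1.26 and 0.74.

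Genes of protein kinase C and other phorbol ester receptors were called lower at 12 and higher at 4 of 19, with a median log2 fold change of −0.63. The share called lower lies between those of all promoters and of the brightest promoters. Over 2-fold losses were called at 3 of them, 2 under all 4 scalings. PRKD1, the protein kinase D1 gene, went from 13.7 and 11.8 CPM to 3.36 and 3.1 (−1.98). RASGRP3, the gene of a Ras activator with a phorbol ester binding domain, went from 57.2 and 54.9 CPM to 19.7 and 17.4 at its start (−1.60), although its whole locus was not called (−0.08). PRKCH and PRKCA, genes of protein kinase C eta and alpha, fell by 1.42 and 1.03.

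Megakaryocyte genes split. Of 15 transcription factor genes 5 rose and 7 fell, with over 2-fold changes at 4 higher and 1 lower under all 4 scalings. ERG, an ETS factor gene, had the largest gain of the list and went from 0.227 and 0.369 CPM to 30.7 and 34.4 at chr21:38645413-38647440, a log2 fold change of 6.73 (SE 0.22, edgeR adjusted p = 2.38e-17). ETS1 went from 0.681 and 0.843 CPM to 5.46 and 3.00 (2.41). RUNX3 rose by 1.83 and had 9 of 10 locus regions called over 2-fold higher, and MAFK, a partner of NFE2, rose by 1.61. NFE2, which is active in erythroid cells and megakaryocytes, fell from 44.5 and 45.9 CPM to 9.66 and 12.1, a log2 fold change of −2.04, with 9 of 13 locus regions lower.

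Surface and granule genes of megakaryocytes rose at 9 and fell at 8 of 19 genes tested. VWF, the von Willebrand factor gene, went from 0.227 and 0.527 CPM to 3.50 and 3.89, a log2 fold change of 3.26, or 4 without 0 h replicate 2. CD9 went from 0.738 CPM in both libraries to 6.09 and 5.41 (2.95), ITGA2, the collagen receptor gene, from 0.625 and 0.422 CPM to 2.52 and 2.76 (2.34), and PECAM1 from 13.0 and 15.3 CPM to 37.9 and 40.5 (1.47). In contrast, the start of ITGA2B, the gene of the platelet integrin alpha chain, fell from 69.9 and 71.7 CPM to 27 and 34.8 (−1.19), and its partner ITGB3 was not called (−0.13). GP1BB and GP6, platelet receptor genes, fell by 1.28 and 1.18.

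Adhesion, matrix and protease genes had a median log2 fold change of 0.42 (0.76 with total counts, 0.86 with loess offsets), with 12 of 24 called higher and 5 lower. Over 2-fold gains were called at 9 of them, 8 under all 4 scalings. SPARC, a matrix protein gene, went from 0.341 and 0.316 CPM to 6.58 and 5.27, a log2 fold change of 4.13. ITGA3 went from 0.909 and 0.949 CPM to 12.0 and 9.60 (3.51) and ITGAX from 1.02 and 1.05 CPM to 11.9 and 9.35 (3.33), both integrin alpha chain genes. CD44, the hyaluronan receptor gene, had all 11 locus regions called over 2-fold higher, and its brightest region went from 0.625 and 0.105 CPM to 3.64 and 3.05, a log2 fold change of 3.20 that became 4.90 without 0 h replicate 1 and 2.40 without replicate 2. PXN, the paxillin gene, rose by 1.80 at its start, and ITGB7, a leukocyte integrin gene, fell by 1.50.

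Cell cycle genes fell at 20 and rose at 1 of 25, with a median log2 fold change of −0.67 (−0.34 with total counts, −0.35 with loess offsets). The share called lower is near the 69.8% of the brightest promoters, and 1 over 2-fold loss was called, 0 under all 4 scalings. The member that rose was CDKN1A, the gene of the cyclin-dependent kinase inhibitor p21, from 9.82 and 12.4 CPM to 31.6 and 31.8 (1.51). CCND3, the cyclin D3 gene, went from 132 CPM in both libraries to 54.9 and 58.5 (−1.22), and CDK4 fell by 1.07. MCM2 and PCNA, of DNA replication, fell by 0.95 and 0.91. MYC was not called at its brightest region (−0.01). TGF-beta and SMAD genes rose at 3 and fell at 7 of 19, and their median of −0.11 was 0.23 with total counts. Those that rose were INHBA, SMAD3 (0.80) and TGFBI (1.39). Cytoskeleton genes of megakaryocytes rose at 3 and fell at 9 of 17, with a median of −0.33 that was 0.007 with total counts and 0.11 with loess offsets. TUBB1, the platelet tubulin gene, fell by 1.52. Starts of ribosomal protein genes, taken as a reference of bright promoters, fell at 24 of 26 with no over 2-fold call, and all 26 loci were called lower. Their median was −0.52, or −0.19 with total counts and −0.11 with loess offsets.

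**Figure D3:**
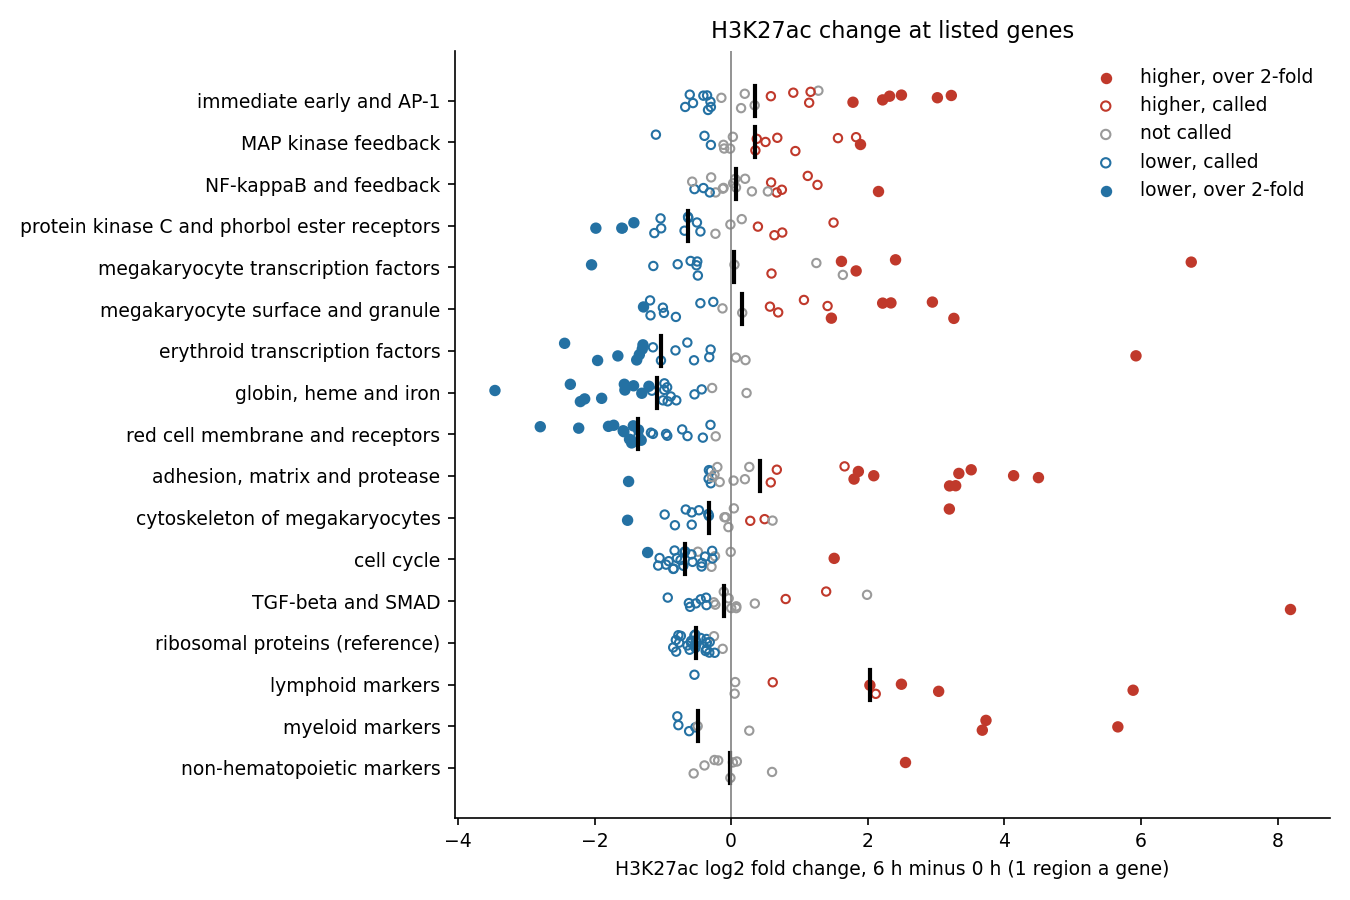
H3K27ac log2 fold change at 6 h against 0 h for genes of 17 lists, 1 region a gene, on the TMM scale. Red marks genes called higher, blue genes called lower and grey genes not called, filled points are called over 2-fold, and black bars are medians. The 3 erythroid lists lie mostly below 0, with medians of −1.03, −1.08 and −1.36. The lymphoid and adhesion lists have the highest medians, 2.03 over 9 genes and 0.42 over 24 (1.30 and 0.86 with loess offsets). The lymphoid regions were dim, with a median of 1.03 CPM at 0 h. Single genes with large gains also lie in lists with medians near or below 0.

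Among markers of other blood lineages, lymphoid genes mostly rose from low levels and myeloid genes moved both ways. Of 15 lymphoid marker genes 9 had a tested region, 6 rose and 1 fell, their median log2 fold change was 2.03, and their summed level went from 40.7 and 47.5 CPM to 68.1 and 63.4. EBF1, a B cell factor gene, went from 0.738 and 1.05 CPM to 7.28 and 7.58 (3.04), and TCF7, a T cell factor gene, from 1.08 and 0.580 CPM to 4.06 and 5.17 (2.49). PAX5, which defines B cells, held 0 counts at 0 h and 12 at 6 h. Among 17 myeloid genes 9 were tested, 3 rose and 4 fell, their median log2 fold change was −0.49, and the sum went from 229 and 244 CPM to 182 and 185. MPO, the myeloperoxidase gene, went from 0.227 and 0.474 CPM to 19.6 and 17.1 at chr17:58272261-58274301, a log2 fold change of 5.66 (SE 0.25, edgeR adjusted p = 1.48e-15), or 6.29 without 0 h replicate 2. CSF1R, the receptor gene of macrophage colony-stimulating factor, went from 1.14 and 0.843 CPM to 15.1 and 10.6 (3.68). Of 16 genes of non-hematopoietic tissues 9 were tested, and the sum was 120 and 129 CPM at 0 h and 115 and 126 at 6 h. What part cells of another kind have in these values was not tested.

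Promoter windows were searched on both strands for short motifs, and no motif searched contains another. Windows that overlap a region called over 2-fold higher numbered 591, those called lower 292 and those not called over 2-fold 13649, of 34789 windows in all. The AP-1 motif TGANTCA lay in 31.8% of the windows that rose, 4.79% of those that fell, 5.39% of those not called and 7.69% of all. The GATA motif AGATAA lay in 11.8%, 21.2%, 5.41% and 10.4% in the same order. The CRE motif TGACGTCA was found in 1.18%, 0.342%, 3.30% and 1.84%, and the ETS motif CCGGAAGT in 2.03%, 1.37%, 9.24% and 4.12%. For the E-box CACGTG the shares were 4.91%, 9.25%, 9.77% and 7.24%, and for the GC box GGGCGG 36.5%, 49.7%, 69.4% and 44.9%. Median GC content was 54% in windows that rose, 60.8% in those that fell and 65.3% in those not called, so the shares were also taken in the third of tested windows with the lowest GC content. There, AP-1 motifs lay in 41.3%, 8.45% and 10.3%, and GATA motifs in 16.6%, 33.8% and 12.5% of windows that rose, fell or were not called. These shares are a description of the letters in the windows.

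**Figure D4:**
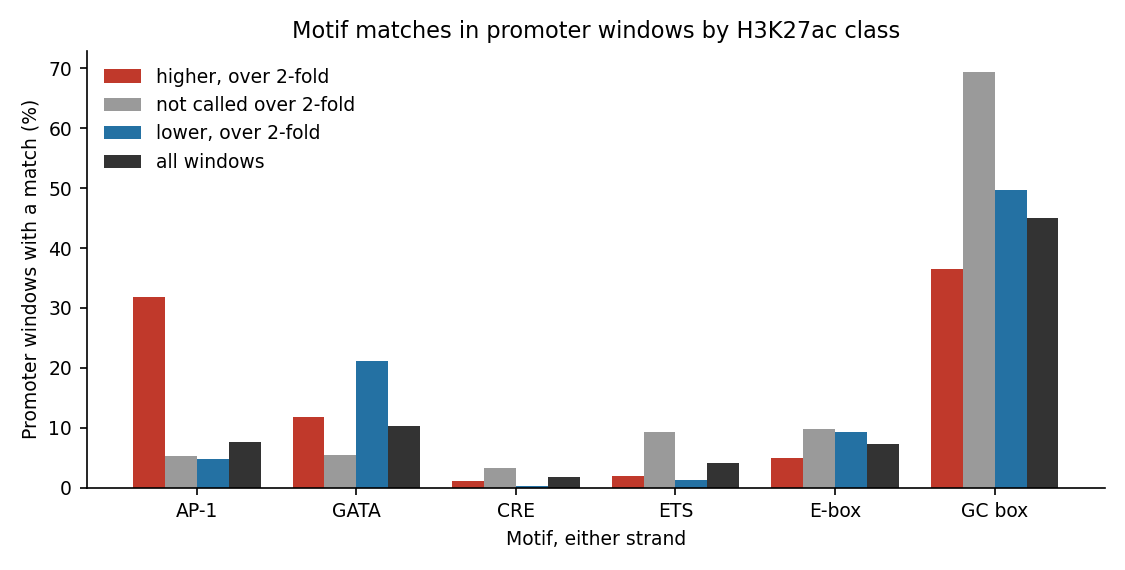
Percent of promoter windows (300 bases) that hold each motif on either strand, by the H3K27ac class of the overlapping region, with n of 591 higher, 292 lower, 13649 not called over 2-fold and 34789 windows in all. AP-1 motifs were most frequent in windows that rose (31.8%) and GATA motifs in windows that fell (21.2%).

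Jun binding was measured in separate libraries at 0 and 6 h, and Jun regions were sorted by the H3K27ac region they overlap. Over all 132947 tested Jun regions, 25.3% were called, 13.1% higher and 12.2% lower. Where H3K27ac was called higher, 35.4% of 27216 Jun regions were called higher and 3.45% lower, with a median log2 fold change of 0.63. Where it was called lower, 1.65% of 19383 were called higher and 41.9% lower, with a median of −0.72, and where it was not called the median was −0.19. At over 2-fold gains of H3K27ac 51.3% of Jun regions were called higher, and at over 2-fold losses 68.8% were called lower. The mean log2 Jun level in regions of H3K27ac gain was −0.14 and −0.14 at 0 h and 0.68 and 0.83 at 6 h, and in regions of loss 0.97 and 0.99 at 0 h and 0.41 and 0.50 at 6 h, so the libraries of the 2 times were apart in both classes. Of H3K27ac regions called higher, 86.0% overlapped a Jun region, against 66.2% of those called lower and 64.6% of those not called. At the HRH1 start Jun went from 8.75 and 9.75 CPM to 37.7 and 47.3, a log2 fold change of 2.20 (edgeR adjusted p = 4.74e-07). CTCF at the same HRH1 start went from 1.27 and 0.722 CPM to 7.77 and 5.29, a log2 fold change of 2.63 (edgeR adjusted p = 0.0364). At the KEL start, whose printed window holds no AP-1 motif, Jun went from 14.0 and 8.17 CPM to 1.82 and 1.82, a log2 fold change of −2.60, and at EPB42 from 4.81 and 5.59 CPM to 0 and 0.365.

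**Figure D5:**
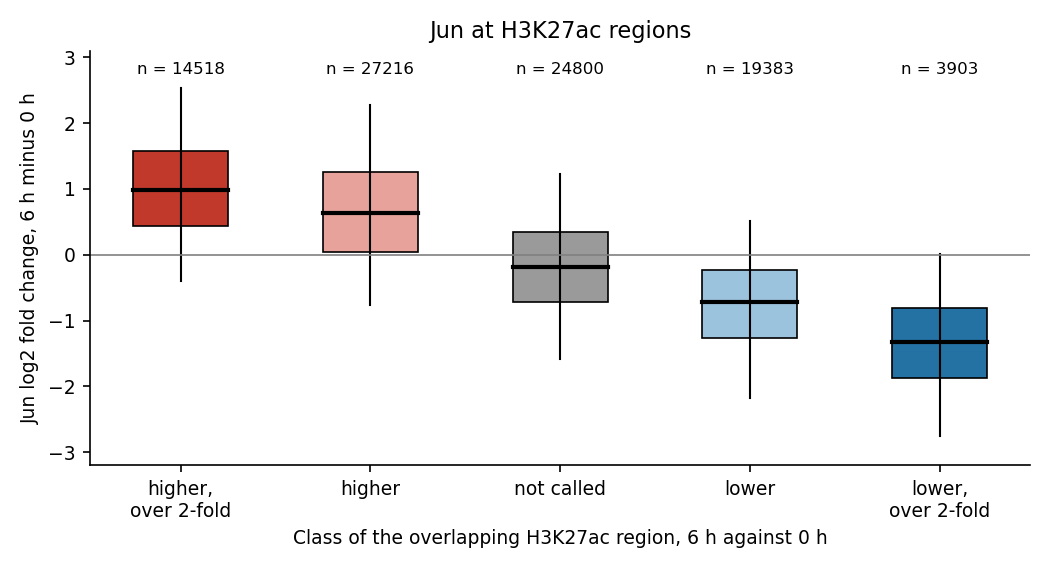
Jun log2 fold change at 6 h against 0 h in Jun regions that overlap an H3K27ac region of each class, with the number of Jun regions above. Boxes span the 25th to 75th percentile with the median as a bar, and lines reach the 5th and 95th percentile. The median falls from 0.99 at over 2-fold gains of H3K27ac to −1.33 at over 2-fold losses.

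CTCF, an insulator protein, had few regions called, while its median differed by H3K27ac class. Of 58156 tested CTCF regions 2.65% were called, 2.33% higher and 0.325% lower. Where H3K27ac was called higher, 1.82% were called higher (2.29% at over 2-fold gains), which is not above the share over all CTCF regions. The share called higher was 0.176% where H3K27ac was lower and 0.848% where it was not called. Where no H3K27ac region overlapped it was 3.21%, and 1148 of the 1353 higher calls lay there. The median CTCF log2 fold change was 0.47 where H3K27ac was called higher (0.72 at over 2-fold gains), −0.10 where it was lower and −0.01 where it was not called. Without CTCF 6 h replicate 1, the difference between the first class and the last went from 0.49 to 0.29.

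Deposited peaks were fewer at 6 h, whereas most over 2-fold calls on counts were gains. The 0 h libraries had 42125 and 42852 peaks and the 6 h libraries 36947 and 39680, a ratio of means of 0.902. The exact permutation p was 0.333, the smallest that 2 against 2 libraries can give. With only peaks of a −log10 q of at least 10, the ratio was 0.677. Depth was not matched, and region counts summed to 12634261 and 18775241 at 6 h against 19963875 and 21772218 at 0 h. What part depth has in the peak numbers was not tested. Of 3203 members with a peak in both 6 h libraries and neither 0 h library, 68.7% were called over 2-fold higher, and of 5400 with peaks in both 0 h libraries alone, 39.0% were called lower. No library of the 2 times had a peak at 47733 tested members, and 22.2% of these were called over 2-fold higher, which is 10589 of the 15747 members so called.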

How the data were processed

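CUT&RUN libraries of H3K27ac, Jun and CTCF at 0, 6 and 72 h of PMA were used, 2 a time and antibody. Per the submitters' processing notes, reads were handled with Trim Galore 0.4.3, BWA 0.7.17, SAMtools 1.9, deepTools 3.0.1, MACS2 and bedtools 2.26; the notes name hg19 and hg38 without a role, and region ends fit GRCh38 only. The authors deposited raw counts per region, with their log2 fold changes and adjusted p-values, and peaks per library with a −log10 q. In the authors' deposited table the adjusted p columns of 6 and 72 h are identical in 100% of regions, so they were not used; its log2 fold changes have the same sign at all 21598 members called over 2-fold here.

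Counts were fitted with edgeR 4.0.16 (R 4.3.3, filterByExpr, TMM, the quasi-likelihood test) over 6 libraries an antibody, with glmTreat at a log2 threshold of 1 for over 2-fold calls and Benjamini-Hochberg adjustment over all tested regions. Loci summed the counts of regions in the gene span with 10 kb on each side. Genes, starts and promoter sequences came from RefSeq on GRCh38.p14, and an overlap was 1 bp or more. Folds from 0 counts were taken against a floor of 3 counts over the group, and intervals of 95% cover counting error only, since reads carry no molecular identifiers. Library scores of Jun are means of log2(CPM + 0.5). The fit was tested on simulated data.

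Named were the 10 regions with the largest gains and the 10 with the largest losses among over 2-fold calls with at least the median level and no overlap of libraries, 1 a gene; the 10 loci with most regions called higher and 10 with most called lower; the 10 and 10 gene starts with the largest changes; and genes of the lists. Levels used for these choices, for the level groups and for the brightest region of a gene were means over the libraries of 0, 6 and 72 h. Members and lists were chosen with earlier results of these data known. Replicate numbers did not pair the libraries (correlation of deviations 0.09 between 0 and 6 h). Alternatives were other scalings, filters, DESeq2 1.42.0, a replicate block and each library left out. Rad21 was not used here, and an item is not reported here.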

Additional observations from a re-analysis of the deposited data

How the results depend on the processing

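The balance of gains and losses depended on the scaling. Among called regions 55.1% were higher with TMM, 71.8% with total counts, 72.7% with peak-region factors, 51.5% with DESeq2 and 48.4% with loess offsets. Among over 2-fold calls 72.8% were higher, against 86.2%, 86.8% and, with loess offsets, 59.9%. Among called loci 39.5% were higher, against 63.1% with total counts, 64.4% with peak-region factors, 52.7% with DESeq2 and 55.5% with loess offsets. No over 2-fold call was called in the opposite direction under any alternative. DESeq2's over 2-fold test called 10632 regions in place of 21649 and held 47.2% of the higher and 54.3% of the lower calls, and total counts held 57.0% of the lower calls; the cause was not tested. Loci without extension called 16489. A stricter peak threshold, a −log10 q of 10 or more, gave a ratio of 0.677, with 988 members that had such peaks in both 6 h libraries alone and 4719 in both 0 h libraries alone.

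Leaving out 1 library gave 46914 to 50942 called regions, 17949 to 20491 over 2-fold calls, 23007 to 25322 loci and peak ratios from 0.870 to 0.934. The Jun median where H3K27ac was higher, less that where it was not called, was 0.82, or 1.21 for over 2-fold classes and 0.76 to 0.91 with a library left out. Where H3K27ac was lower it was −0.53, or −1.11 and −0.57 to −0.47. For CTCF these were 0.49, 0.72 and 0.29 to 0.64, and −0.09, −0.27 and −0.18 to −0.03. The replicate block gave 54674 regions, 21119 over 2-fold calls and 26161 loci and changed no such count by over 1.5 times. All 240 values each of the named regions, starts and loci kept their direction and call. Of the values of listed genes named, 1503 kept both, 27 lost the call and 43 gained it. Of 309 listed genes, 32 called ones changed sign under another scaling, none over 0.62 on the log2 scale. Regions with few counts at 0 h limit the precision of the largest folds.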

Other observations

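Levels at 72 h, from libraries in the same model, are given beside those at 6 h for some listed genes, chosen after their values were seen and with no test. KLF2 had a mean of 0.746 CPM at 0 h, 7.17 at 6 h and 2.49 at 72 h. DUSP8, a phosphatase gene of MAP kinases, had 1.22, 3.64 and 0.799 CPM. CXCL8 had 14.4, 31.1 and 16.5 CPM, RELB 3.86, 9.36 and 3.38, and NFKB2 8.11, 13.5 and 8.48. All 5 were lower at 72 h than at 6 h, and DUSP8 and RELB were below their 0 h mean.

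Some genes that fell at 6 h were higher again at 72 h. GATA1 had 42.5 CPM at 0 h, 17.2 at 6 h and 36.8 at 72 h, and RASGRP3 had 56.0, 18.6 and 44.6. LYL1 had 103, 26.3 and 52.3 CPM and NFE2 45.2, 10.9 and 23.5. KLF1 went on down, with 68.8, 12.6 and 2.18 CPM.

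Only 187 members held 0 counts in both 6 h libraries, and 3 of them were called over 2-fold lower, against 2002 and 1139 for 0 h.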
